A study of Mus musculus with 11 samples.

Results

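ERVL and ERVL-MaLR elements, the families of mouse endogenous retrovirus-like repeats that include MERVL, ORR1 and MT, were followed in RNA from lung fibroblasts with and without cGAS. The members were all entries of the deposited count tables whose family label was ERVL or ERVL-MaLR. They were 181 subfamilies, 116 of ERVL and 65 of ERVL-MaLR, among 1243 repeat subfamilies and 58223 entries in all. The cells were primary fibroblasts, grown from mouse lung and kept at low oxygen in medium with serum. The KO group held cells of 6 mice with the gene for the DNA sensor cGAS knocked out (3 females and 3 males), and the WT group cells of 5 mice without the knockout (2 females and 3 males). No treatment, age or strain was given in the sources used here, and the labels speak of cultured cells in one field and of pulverized tissue in another. Ribosomal RNA was depleted, and 1 library was sequenced per mouse.

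ERVL elements are old endogenous retroviruses, copied into the genome by reverse transcription and flanked by long terminal repeats (LTRs), which carry their promoters. MERVL, with its LTR MT2_Mm, is the ERVL lineage known for a burst of transcription in the early mouse embryo, and in differentiated cells it is held silent by chromatin repressors such as KDM1A, TRIM28 and SETDB1. MaLR elements are shorter relatives without a reverse transcriptase of their own. Among them, ORR1 and MT spread in rodents, whereas MLT1 is older and shared with other mammals. Subfamily names ending in -int stand for the internal part between the LTRs.

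The libraries held between 27261958 and 48039328 counts. Cgas was at 2.07 ± 0.269 counts per 1000000 counts of the library (CPM; SD, n = 6) in KO and 8.28 ± 1.74 (n = 5) in WT, and was the one entry of 22298 tested that passed the test of KO against WT over both sexes (log2 fold change -1.99, edgeR adjusted p = 0.00102). The library WT female 2 stood apart: its median correlation with the other libraries was 0.972, against 0.984 or more for each of the others, and the nuclear noncoding RNA Malat1 was at 8377 CPM there and between 1995 and 3349 elsewhere. Repeats of all kinds took 10.2% of its counts and 5.31% to 8.10% in the other 10 libraries. The 8 fibroblast markers, among them Col1a1 and Pdgfra, summed to 22900 to 30500 CPM in KO and 25400 to 34100 in WT. The 10 leukocyte and macrophage markers, among them Ptprc and Lyz2, were also present, at 6690 to 11300 CPM in KO and 4870 to 7030 in WT. In such mixed RNA, fewer cells of a type and less RNA per cell cannot be told apart.

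Counts were spread over many subfamilies. In ERVL, the 5 subfamilies with the most counts, RMER15, MERVL_2A-int, MT2B, MT2B1 and MERVL-int, made up 38.6% of the family. The 8 MERVL and MT2 entries together held 41.5% of ERVL counts, the 10 MLT2 entries 6.6%, and the 98 others 51.9%. In ERVL-MaLR, MTD, ORR1B1-int, MTA_Mm, MTC and ORR1D1 made up 39.5%. The 18 ORR1 entries held 47.2% of ERVL-MaLR counts, the 12 MT entries 40.1%, the 34 MLT1 entries 12.6% and MLT-int 0.125%. These are shares of counts, not levels per length, since the length covered by each subfamily was not used here. A count can also come from a transcript that merely contains the element, which these tables do not separate.

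Each family was a small share of the RNA. The KO females had 0.0884%, 0.104% and 0.0948% of all counts in ERVL, and the KO males 0.0763%, 0.0619% and 0.0655%. The WT females had 0.0849% and 0.134%, and the WT males 0.0819%, 0.0812% and 0.0888%. WT female 2 was the highest library and KO male 2 the lowest, and the KO and WT ranges overlapped. The ERVL-MaLR share ran from 0.312% to 0.520% in KO and from 0.409% to 0.653% in WT, with the same libraries at the ends. There were between 4.88 and 5.15 ERVL-MaLR counts for each ERVL count in every library, so the families moved together across the libraries.

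**Figure D1:**
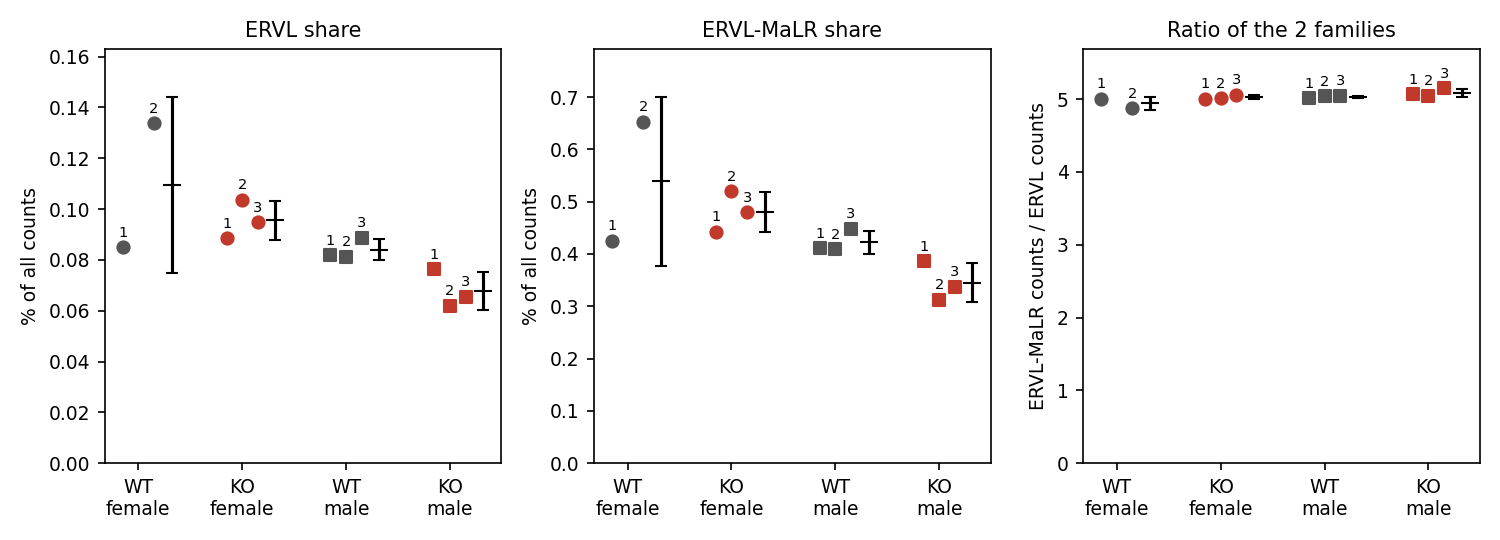
Share of all counts taken by ERVL (left) and ERVL-MaLR (middle), in percent, and the ratio of their counts (right), with 1 point per library, numbered by replicate, and the mean ± SD beside each group (2 WT females, 3 libraries in each other group). WT female 2 is at the top of both share panels, the KO males lie below the WT males, and the ratio stays between 4.88 and 5.15.

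Over both sexes, the difference between KO and WT shares did not pass the test. ERVL was at 0.0818% ± 0.0166 (SD, n = 6) in KO and 0.0941% ± 0.0224 (n = 5) in WT, with a mean difference within sex of -0.0149 percentage points (two-sided exact permutation within sex, p = 0.115, where 0.005 is the smallest p the design allows). ERVL-MaLR was at 0.413% ± 0.0816 in KO and 0.469% ± 0.104 in WT, a difference of -0.0676 points (exact permutation p = 0.13). In the males, every KO library lay below every WT library for both families: 0.0679% ± 0.00751 against 0.0840% ± 0.00419 (n = 3 each) for ERVL and 0.345% ± 0.0378 against 0.422% ± 0.0221 for ERVL-MaLR. In the females the ranges overlapped. The difference was -0.0161 points in males and -0.0137 in females for ERVL, and -0.0771 and -0.0581 for ERVL-MaLR. Of the single libraries left out, the WT females moved the pooled difference most. Without WT female 2 the pooled difference was -0.00267 points for ERVL and -0.0107 for ERVL-MaLR. Without WT female 1 it was -0.0271 and -0.125. Each of these leaves 1 WT female, so no p is given for them. Taken as a share of repeat counts, ERVL was at 1.25% ± 0.182 in KO and 1.25% ± 0.110 in WT, and ERVL-MaLR at 6.33% ± 0.898 and 6.23% ± 0.511. On that scale the mean difference within sex was -0.00575 points for ERVL (exact permutation p = 0.965), and that of ERVL-MaLR changed sign, to 0.0597 points (exact permutation p = 0.9).

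No subfamily of either family passed the test of KO against WT over both sexes (edgeR, adjusted p under 0.05: 0 of 104 ERVL and 0 of 65 ERVL-MaLR subfamilies tested). Over all entries tested, 0.00448% passed. At an unadjusted p under 0.05 there were 23 ERVL subfamilies, 1 higher and 22 lower in KO, and 17 ERVL-MaLR subfamilies, all 17 lower. These are 22.1% and 26.2% of those tested, against 17.2% of all entries, of which 10.1% were higher and 7.09% lower. With limma-voom 0 passed in both families, and with DESeq2 1 passed, MER54A, lower in KO, as were 0.686% of all entries. Without WT female 1, 15 ERVL and 17 ERVL-MaLR subfamilies fell in KO (edgeR), where 2.73% of all entries did. The other 12 ERVL subfamilies were not tested, since they had at most 26 counts in any library: LTR86B2, LTR53-int, LTR53B, LTR108c_Mam, MER74C, LTR16D1, LTR89B, LTR86C, LTR16D2, LTR52-int, LTR108e_Mam and MER76-int.

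The fitted values of nearly all members were below 0. The median log2 fold change was -0.27 over the 104 ERVL subfamilies, of which 12 were positive, and -0.26 over the 65 ERVL-MaLR subfamilies, of which MLT1F2 alone was positive. Over all entries the median was -0.015 with 47.5% positive. Other repeats had similar medians: -0.26 over all 1085 repeats tested, -0.26 over 103 ERV1 subfamilies, -0.24 over 266 ERVK subfamilies and -0.245 over 147 LINE-1 subfamilies. The lineages lay close to each other, at -0.28 for MERVL and MT2, -0.25 for MLT2, -0.26 for the other ERVL, -0.26 for ORR1, -0.26 for MT and -0.245 for MLT1. In a fit of the repeat entries alone, scaled on repeats, the medians were -0.02 for ERVL and -0.004 for ERVL-MaLR, with 46 of 106 and 27 of 65 subfamilies positive and 0 called. This fit was added after the data had been seen. Scaled on repeats, the family medians thus lay near 0.

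**Figure D2:**
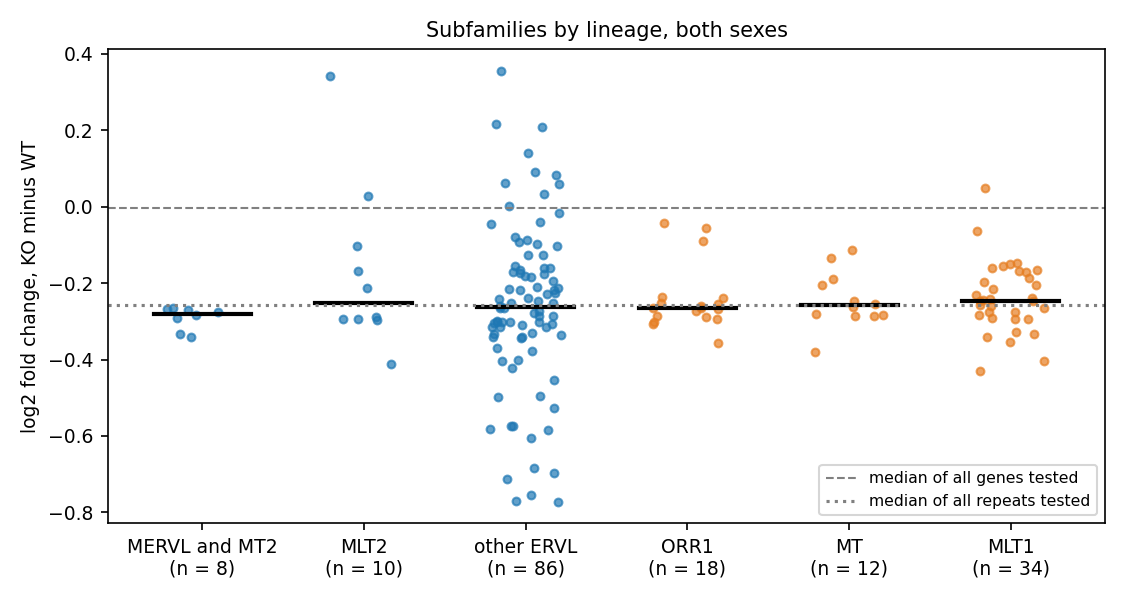
Log2 fold change of KO against WT over both sexes (vertical axis) for each tested subfamily, grouped by lineage, ERVL in blue and ERVL-MaLR in orange, with black bars at the lineage medians. The 8 MERVL and MT2 subfamilies lie between -0.34 and -0.27, the lineage medians lie close to the median of all repeats (dotted), below that of all genes (dashed), and the widest spread is among the other ERVL.

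MERVL-int, the coding part of MERVL, was detected in every library. KO females had 48.5, 58.4 and 52.4 CPM, and KO males 41.0, 33.0 and 38.5. WT females had 46.8 and 80.4 CPM, and WT males 44.7, 40.8 and 50.7. The KO and WT ranges overlapped, and WT female 2 alone lay above 60 CPM. The means were 45.3 ± 9.47 (SD, n = 6) and 52.7 ± 15.9 (n = 5), and the log2 fold change was -0.27 (SE 0.138, edgeR adjusted p = 0.335). MT2_Mm, the LTR that drives MERVL, was at 29.4 to 45.6 CPM in KO, with a median of 35.6, and at 40.6, 58.1, 38.4, 34.7 and 39.5 CPM in WT. Its log2 fold change was -0.27 (SE 0.109, edgeR adjusted p = 0.251). The other MERVL and MT2 entries, among them MERVL_2A-int, MT2B and MT2B1, had values from -0.34 to -0.27, and none of the 8 passed.

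Internal parts were set beside their LTRs. Of 13 pairs of an internal part and its LTR, 10 had both parts tested, and both values were negative in all 10, where 981 of the 1085 repeats tested were negative. The values within a pair were close for MERVL-int and MT2_Mm and for MTC-int (-0.25) and MTC (-0.25), and further apart for ORR1A1-int (-0.31) and ORR1A1 (-0.055) and for MLT1H-int (-0.06) and MLT1H (-0.28). The ratio of MERVL-int to MT2_Mm counts was 1.25 ± 0.089 (SD, n = 6) in KO and 1.23 ± 0.0996 (n = 5) in WT. That of ORR1B1-int to ORR1B1 was 2.99 ± 0.105 in KO and 3.11 ± 0.118 in WT. The RMER15-int to RMER15 ratio was 0.220 ± 0.0147 in KO, from 0.204 to 0.243, and 0.246 ± 0.00699 in WT, from 0.234 to 0.251, with overlapping ranges. These ratios describe the counts and were not tested.

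RMER15, the ERVL subfamily with the most counts, was at 73.8 to 122 CPM in KO, with a median of 97.5, and at 95.8 to 160 CPM in WT, with WT female 2 at the top. Its log2 fold change was -0.26 (SE 0.119, edgeR adjusted p = 0.293). Its internal part RMER15-int had a lower value, -0.42 (SE 0.131, edgeR adjusted p = 0.184), with 15.3 to 29.6 CPM in KO and 24.0 to 37.5 CPM in WT. In the males it was at 19.7, 15.3 and 16.4 CPM in KO and 24.06, 23.99 and 27.03 in WT, without overlap. When repeats alone were fitted, RMER15-int was at -0.17 and RMER15 at -0.005. That fit rescales both entries alike, so it is no separate check of the gap between them.

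MER54A was the single member whose KO and WT ranges did not overlap over both sexes, a pattern found in 1.08% of all entries, 0.48% with KO below WT. It was at 1.52, 1.38 and 1.58 CPM in KO females and at 1.49, 1.05 and 1.15 in KO males. The WT values were 1.77 and 2.53 CPM for females and 2.07, 1.82 and 1.96 for males. The means were 1.36 ± 0.216 (SD, n = 6) and 2.03 ± 0.305 (n = 5), and the log2 fold change was -0.60 (SE 0.147), with an edgeR adjusted p of 0.179 and a DESeq2 adjusted p of 0.0302. Without WT female 1 it passed (edgeR adjusted p = 0.0268), and without WT female 2 it did not (log2 fold change -0.53, edgeR adjusted p = 0.188). Within the repeats alone the value was -0.36 (adjusted p = 0.183). Its relative MER54B was at 0.396 to 0.826 CPM in KO and 0.642 to 1.11 CPM in WT, overlapping, with a log2 fold change of -0.70 (SE 0.186, edgeR adjusted p = 0.179). The DESeq2 adjusted p of MER54B was not available.

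The ERVL members with the smallest p among the higher were LTR16A2, MLT2F and ERV3-16A3_I. LTR16A2 was at 1.75, 2.12 and 1.76 CPM in the KO females against 1.71 and 1.57 in the WT females, and at 2.02, 1.75 and 1.42 CPM in the KO males against 1.27, 1.20 and 1.27 in the WT males. KO lay above WT within each sex, though the pooled ranges overlapped. Its log2 fold change was 0.36 (SE 0.138, edgeR adjusted p = 0.232), and 0.60 when repeats alone were fitted (adjusted p = 0.174). MLT2F had a value of 0.34 (edgeR adjusted p = 0.346), with KO female 2 at 6.50 CPM and the other KO libraries at 3.12 to 4.13. ERV3-16A3_I, an internal sequence of the ERV3 group, had a value of 0.22 (edgeR adjusted p = 0.412).

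**Figure D3:**
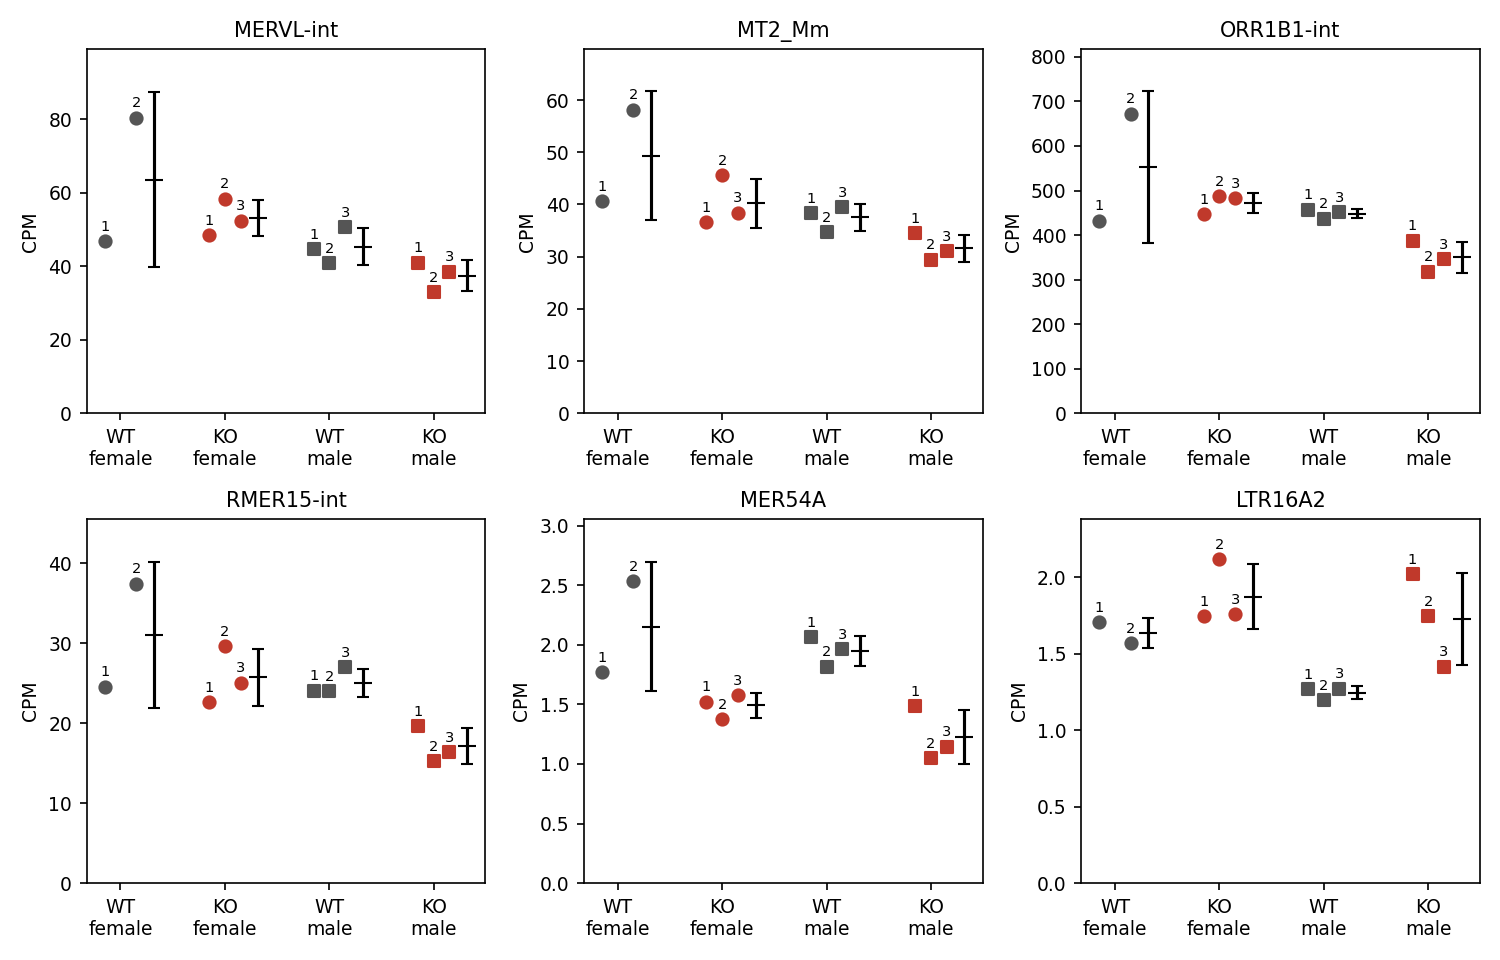
CPM of 6 named subfamilies by group, with 1 point per library, numbered by replicate, and the mean ± SD beside each group. WT female 2 is the highest library for MERVL-int, MT2_Mm, ORR1B1-int, RMER15-int and MER54A but not for LTR16A2, and MER54A is lower in all 6 KO libraries than in all 5 WT libraries.

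The ERVL-MaLR subfamilies with the most counts followed the family. MTD, an MT element LTR, was at 303 to 541 CPM in KO, with a median of 421, and at 430, 696, 433, 416 and 468 CPM in WT (log2 fold change -0.28, SE 0.13, edgeR adjusted p = 0.295). ORR1B1-int was at 318 to 488 CPM in KO and 432 to 673 in WT (-0.295, SE 0.116, edgeR adjusted p = 0.238). MTC and ORR1D1 were at -0.25 and -0.27. MTA_Mm had the smallest difference of the 5, -0.13 (SE 0.089, edgeR adjusted p = 0.454), and a positive value, 0.11, within the repeats alone.

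Among the older MLT1 elements, those with the smallest p were MLT1J-int, MLT1J1 and MLT1N2. MLT1J1 was at 4.34 to 8.41 CPM in KO, with a median of 5.51, and at 6.55, 11.01, 6.62, 5.85 and 6.78 CPM in WT, overlapping (log2 fold change -0.40, SE 0.147, edgeR adjusted p = 0.214). MLT1J-int had a value of -0.43 (edgeR adjusted p = 0.184) and MLT1N2 of -0.35 (edgeR adjusted p = 0.215). MLT1F2 was at 0.05 (SE 0.111, edgeR adjusted p = 0.849), and its sign turned without KO female 2 (-0.01) or KO male 1 (-0.05).

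Among the 3 KO and 3 WT males, KO lay below WT without overlap for 51 of 104 ERVL subfamilies (49.0%) and 38 of 65 ERVL-MaLR subfamilies (58.5%), and above WT for 3 and 0. Over all entries, 15.3% lay below and 15.5% above. The 3 above were ERV3-16A3_I, MLT2F and LTR16A2. By the edgeR test 0 ERVL and 0 ERVL-MaLR subfamilies passed in males, where 2.19% of all entries did. At an unadjusted p under 0.05 there were 18 (17.3%) and 4 (6.15%), against 22.5% of all entries. The medians were -0.28 for ERVL and -0.28 for ERVL-MaLR. With DESeq2, MLT1H and MLT1N2 passed, both lower in KO (log2 fold changes -0.51 and -0.55, DESeq2 adjusted p = 0.0143 and 0.0377), as did 3.8% of all entries.

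In a fit without WT female 2, 7 subfamilies passed in males. That library is not among those compared, but leaving it out changed the shared estimate of spread, the entries tested (22734 in place of 22298) and the scaling, and which of these moved the calls was not tested. All 7 fell in KO, as did 3.35% of all entries: HERV16-int, RLTR35B_MM and RMER15-int of ERVL, and MLT1H, MLT1N2, MTB_Mm and ORR1A3-int of ERVL-MaLR. They were named after their values were seen. MLT1H was at 15.1, 11.8 and 15.3 CPM in the KO males and 21.6, 17.8 and 21.5 in the WT males, with a log2 fold change of -0.52 (SE 0.131, edgeR adjusted p = 0.0433). HERV16-int was at 0.796, 0.785 and 0.749 CPM in the KO males and 1.17, 1.22 and 1.56 in the WT males (-0.75, SE 0.186, edgeR adjusted p = 0.0429). With all 11 libraries the adjusted p in males was 0.0681 for MLT1H and 0.114 for HERV16-int.

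Markers of other cell types differed between the same males. The 10 leukocyte and macrophage markers summed to 7010 to 11300 CPM in the KO males and 4870 to 6680 in the WT males. All 10 had positive values in males, and 4 of them, Ptprc, Cd68, Adgre1 and Fcer1g, rose (edgeR adjusted p = 0.0469 for each), as did 1.44% of all entries. The 8 epithelial markers summed to 9.45 to 11.8 CPM in the KO males and 21.9 to 44.6 in the WT males, and of the 5 tested Krt19 was the 1 that passed, lower in KO as were 0.749% of all entries; none of the 8 was at 0 in every library. The 6 endothelial markers summed to 56.6 to 97.8 CPM in the KO males and 40.4 to 88.5 in the WT males, and their members differed in direction. Vwf, which codes for von Willebrand factor, rose (log2 fold change 1.22, SE 0.26, edgeR adjusted p = 0.0469), Kdr was at 0.51, and Pecam1 (-2.001), Cdh5 (-2.01), Egfl7 (-0.93) and Tek (-0.09) were negative without passing. These calls in males changed with the libraries included. With any KO female, KO male 1, KO male 2, WT male 1 or WT male 3 left out, none of the 6 markers passed. Over all entries, those fits called 32 without KO female 1, 1 without WT male 3 and 0 in the other 5, against 489 with all 11 libraries. The KO females are not among the libraries compared. Under DESeq2's size factors, or scaling on gene rows alone, Ptprc and Vwf did not pass and the other 4 did. Their part in the repeat values was not tested.

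In the females no subfamily passed (edgeR, 0 of 104 and 0 of 65, where 0.00448% of all entries passed), and 4 (3.85%) and 2 (3.08%) had an unadjusted p under 0.05, against 6.69% of all entries. KO lay below WT without overlap for 4 of 104 ERVL and 1 of 65 ERVL-MaLR subfamilies, and above for 4 and 0, against 8.88% and 9.47% of all entries. The medians were -0.20 for ERVL and -0.21 for ERVL-MaLR, and in the share of all counts the 2 WT females lay on either side of the KO females for both families. WT female 1 was below every KO female for 54 of 104 ERVL and 48 of 65 ERVL-MaLR subfamilies, against 23.5% of all entries, and WT female 2 was above every other library for 76 and 63, against 22.3%. Without WT female 2 the medians turned to 0.21 and 0.19, with 88 of 106 and 62 of 65 subfamilies positive. Without WT female 1 they were -0.54 and -0.51, and 26 subfamilies of each family passed, where 16% of all entries did. In each case 1 WT female is left and is assumed to vary like the other groups.

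**Figure D4:**
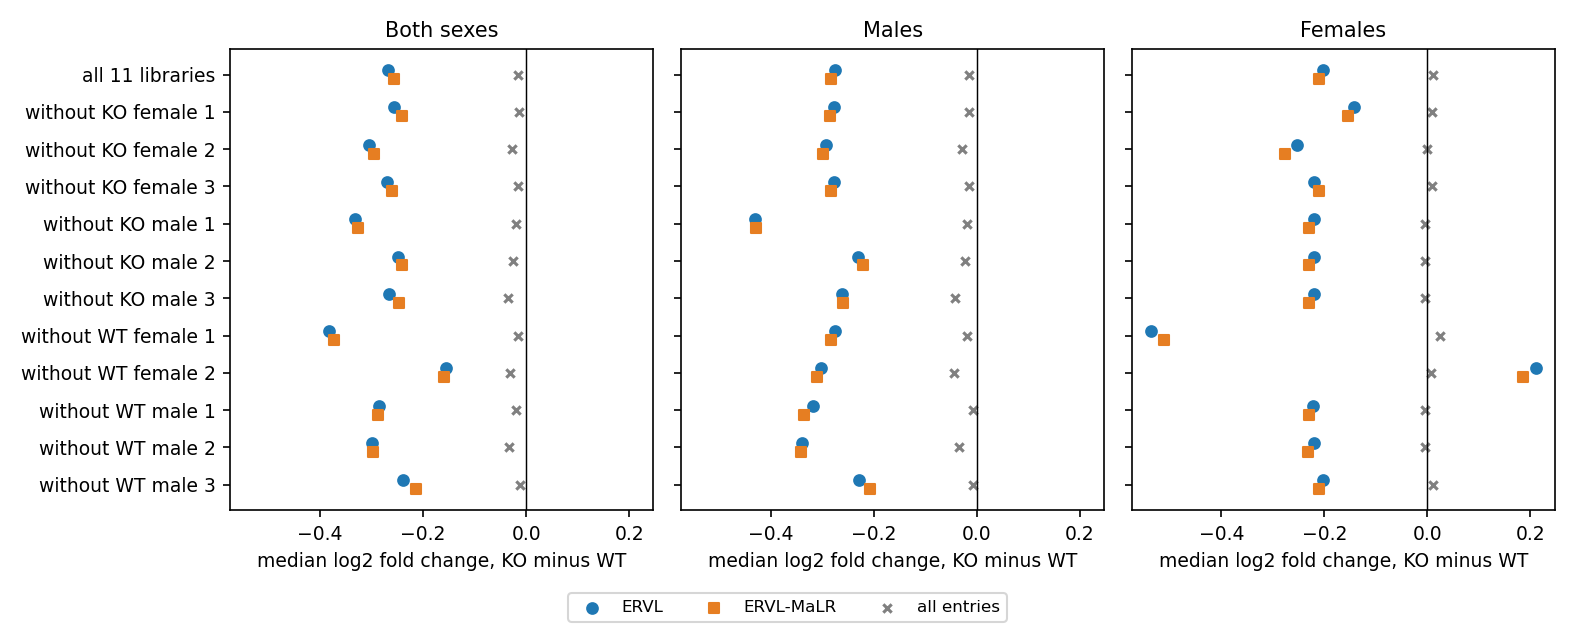
Median log2 fold change of KO against WT (horizontal axis) over the ERVL subfamilies (blue circles), the ERVL-MaLR subfamilies (orange squares) and all entries tested (gray crosses), with all 11 libraries and with each library left out, over both sexes, in males and in females. The family medians stay below 0 over both sexes and in males, and in females they turn to 0.21 and 0.19 without WT female 2.

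The difference between the sexes in the KO effect passed the test for no subfamily (edgeR, 0 of 104 and 0 of 65, where 0% of all entries passed). At an unadjusted p under 0.05 there were 2 and 1, against 13.3% of all entries. DESeq2 called 0 in each family and 226 of all 22298 entries. The smallest p values belonged to LTR108a_Mam, whose log2 difference, male minus female, was 1.52 (SE 0.644, edgeR adjusted p = 0.349), and MER70C, at -1.435 (SE 0.521, edgeR adjusted p = 0.308), both under 0.6 CPM in every library. In ERVL-MaLR they were MLT1H, at -0.49 (SE 0.201, edgeR adjusted p = 0.342), and MLT1N2, at -0.41 (edgeR adjusted p = 0.465). Of the subfamilies tested, 140 had negative values in both sexes and 9 had positive values in both.

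More subfamilies passed in the comparison of the 6 males with the 5 females. Over both genotypes, 15 of 104 ERVL subfamilies (14.4%) and 22 of 65 ERVL-MaLR subfamilies (33.8%) were lower in males and 0 were higher (edgeR adjusted p under 0.05). Over all entries 4.29% passed, 2.46% lower and 1.83% higher in males, and over all repeats 171 of 1085 were lower and 0 higher. The median log2 difference, male minus female, was -0.50 for ERVL and -0.49 for ERVL-MaLR, against -0.48 for all repeats and -0.003 for all entries. MLT2B4 had the smallest p in ERVL: females had 6.16, 7.71 and 8.18 CPM in KO and 7.21 and 10.1 in WT. Males had 5.19, 4.43 and 5.06 CPM in KO and 5.87, 6.27 and 6.55 in WT, a log2 difference of -0.57 (SE 0.119, edgeR adjusted p = 0.0353). Only KO female 1 overlapped the males. In ERVL-MaLR it was MLT1E, at -0.59 (SE 0.124, edgeR adjusted p = 0.0355). Every female library lay above every male library for 8 of 104 ERVL and 6 of 65 ERVL-MaLR subfamilies, against 1.93% of all entries.

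The number of sex calls changed with the libraries included, in these families and over all entries. With all 11 libraries, 956 entries passed. When any one of the 6 KO libraries, WT female 2, WT male 1 or WT male 2 was left out, between 104 and 497 did. In the same fits the calls fell to between 0 and 5 in each family. Without WT female 1 they rose to 65 ERVL and 61 ERVL-MaLR subfamilies, all lower in males, as were 8.02% of all entries, and without WT male 3 to 27 and 37, against 3.76%. DESeq2 called 51 and 54, all lower, against 6.63% of all entries. The medians kept their sign, at -0.39 and -0.37 without WT female 2. The libraries of the sexes carry differently styled names in the files, so sex and any difference in handling that goes with the names cannot be told apart.

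**Figure D5:**
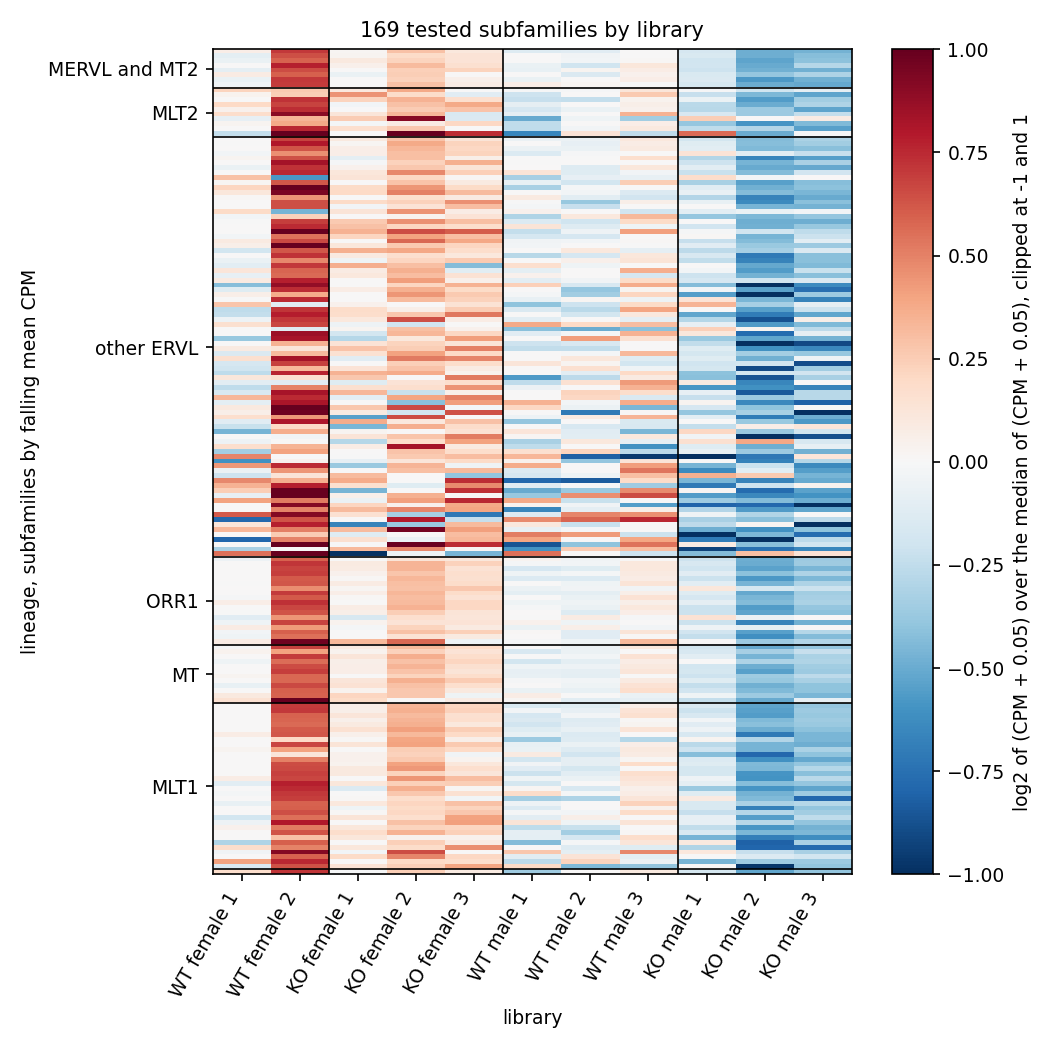
Level of the 169 tested subfamilies (rows, by lineage and falling mean CPM) in the 11 libraries (columns), as log2 of the CPM over the median of that subfamily, with 0.05 CPM added to both and the scale held to -1 to 1. WT female 2 is mostly red and KO male 2 and KO male 3 mostly blue in every lineage, and rows with few counts among the other ERVL are the most uneven.

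Many members of each family, though not all, followed this pattern of libraries. WT female 2 was the highest library for 76 of 104 ERVL subfamilies (73.1%) and 63 of 65 ERVL-MaLR subfamilies (96.9%), against 22.3% of all entries. Its level was 1.62 times the median of the other 10 libraries in the median ERVL subfamily and 1.58 times in the median ERVL-MaLR subfamily. For the summed share of counts the ratio was 1.6 for ERVL and 1.56 for ERVL-MaLR. It was 1.51 for all repeats, 1.54 for LINE-1, 1.42 for ERVK and 1.99 for ERV1. KO male 2 was the lowest library for 55 and 53 subfamilies, 9.88% of all entries having it lowest. How far a member departed from its family was measured as the SD over the 11 libraries of the log2 share of family counts, over members with at least 100 counts in every library. The median SD was 0.108 over 40 ERVL and 0.07 over 58 ERVL-MaLR subfamilies. ORR1B1 (0.022), ORR1A2 (0.027) and RMER15 (0.028) followed their family most closely.

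Among members with at least 100 counts in every library, those that departed most were ERV3-16A3_I (SD 0.466) and LTR16B2 (0.411). They were picked out after their values were seen. Both were lowest in WT female 2, where most members were highest. ERV3-16A3_I was at 5.94 CPM there, at 7.07 to 10.9 in the other WT libraries and at 8.73 to 10.3 in KO. LTR16B2 was at 3.81 CPM there and at 4.61 to 7.20 in the other 10 libraries. The LTR of ERV3-16A3_I, ERV3-16A3_LTR, was not low in WT female 2, at 1.71 CPM against 1.04 to 1.82 CPM elsewhere. Among ERVL-MaLR members with that many counts, the one least like its family was ORR1A1 (SD 0.214). It was at 55.7 to 69.8 CPM in KO and 57.3 to 84.2 in WT, with a log2 fold change of -0.055 (edgeR adjusted p = 0.832).

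Genes tied to MERVL were read beside it. Of 26 listed symbols of the MERVL-linked embryonic program, among them the Zscan4 cluster, Zfp352 and the Tcstv genes, 25 were found. The symbol not found was Dux, which is listed beside Duxf3. Of the 25, 20 were at 0 in every library, which allows up to 0.0624 to 0.11 CPM by library. Duxf3, the transcription factor that turns on MERVL, and Tcstv1, Usp17la and Usp17lc had at most 2 counts in any library. Sp110, a nuclear body gene also expressed in immune cells, was the 1 member tested, at 14.8 ± 2.23 CPM (SD, n = 6) in KO and 11.1 ± 2.02 (n = 5) in WT (log2 fold change 0.43, edgeR adjusted p = 0.189). Of 6 listed symbols of activators of MERVL, again with both Duxf3 and Dux, Nelfa alone was tested, at 20.1 ± 1.00 CPM in KO and 19.9 ± 1.46 in WT. MERVL counts were thus present in all 11 libraries while most genes of that program had none.

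Of 30 repressors of MERVL, 28 were tested and 0 passed over both sexes (edgeR), with 12 positive and 16 negative values and a median of -0.02. At an unadjusted p under 0.05 there were 3 of the 28, against 17.2% of all entries. Pcgf6, a Polycomb subunit, was at 4.93, 4.58 and 4.84 CPM in KO females and 4.78, 4.495 and 4.70 in KO males. WT females had 5.60 and 6.11 CPM, and WT males 6.74, 6.03 and 5.72. Its ranges did not overlap (log2 fold change -0.35, SE 0.084, edgeR adjusted p = 0.179), as in 1.08% of all entries, 0.48% with KO below WT. Setdb1, a histone H3 lysine methyltransferase that works with TRIM28, was at 50.0 ± 3.93 CPM in KO and 43.8 ± 5.47 in WT (0.205, edgeR adjusted p = 0.263). Ehmt2, another such enzyme, was at 181 ± 13.2 and 167 ± 18.0 (0.14, edgeR adjusted p = 0.282). Trim28 was at 154 ± 8.88 CPM in KO and 165 ± 25.3 in WT and Kdm1a at 57.3 ± 3.22 and 59.6 ± 2.84, neither of which passed.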

How the data were processed

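RNA-seq was analysed for 11 libraries of primary mouse lung fibroblasts. For every library the authors deposited raw counts per gene and per repeat subfamily, as whole numbers and not normalized. The submitters' processing notes name Trim Galore for trimming, the aligner STAR and the build GRCm39, all without versions. How reads were counted, with which strand setting, repeat annotation and rule for reads with several matches, is not given in the sources used here, so subfamily values are uncertain wherever reads were shared among near-identical copies.

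CPM and shares were computed here from the deposited counts over each library's total (27261958 to 48039328). A count of 0 allows up to 3 counts, for counting error only. Gene symbols came from GENCODE names, matching 52073 of 56980 gene IDs. Genes and repeats were fitted together with edgeR 4.0.16 in R 4.3.3 (quasi-likelihood F-test, TMM scaling, filterByExpr with a minimum count of 10, Benjamini-Hochberg adjustment over 22298 entries, threshold 0.05), with sex and genotype as terms for both sexes and for sex (8 residual degrees of freedom), and with a mean per genotype and sex otherwise (7). Fold changes carry standard errors (SE) and CPM standard deviations (SD). Shares were compared by exact permutation of genotype within sex (200 arrangements). The libraries are separate mice.

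The subfamilies named were MERVL-int, MT2_Mm, the 5 of each family with the most counts, the 3 with the smallest p in each direction, the 2 with the smallest p in the difference between sexes, and internal parts of named LTRs. Of each gene list the 3 with the smallest p were named; Trim28 and Kdm1a were added. The members and lists were chosen with earlier results of these data known.

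Alternatives were other scalings, no count filter, DESeq2 1.42.0, limma-voom (limma 3.58.1), no sex term, a replicate block, other denominators, each library left out and, added after seeing the data, repeats alone. Within groups, libraries differed by more than sampling noise (chi-square per degree of freedom 12 to 144). Same-numbered KO and WT libraries did not deviate together (correlations -0.145 to 0.0731), so the numbers were not taken as pairs.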

Additional observations from a re-analysis of the deposited data

Results flagged for a closer look

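Of 56 groups of libraries examined (the KO and the WT libraries for each family share and each named subfamily), 16 had a library far from the others, where chance gives about 1 in 20. In 15 of these the library was WT female 2. Its ERVL share was 0.134% of counts against 0.0812% to 0.0888% in the other WT libraries, and its ERVL-MaLR share 0.653% against 0.409% to 0.448%. In CPM, it was at 110.1 for MERVL_2A-int, 80.4 for MERVL-int, 58.1 for MT2_Mm, 94.3 for MT2B and 83.5 for MT2B1. RMER15 was at 160 and RMER15-int at 37.5 CPM. Among ERVL-MaLR subfamilies it was at 11.01 CPM for MLT1J1, 418 for MTC, 21.8 for MTC-int, 696 for MTD, 673 for ORR1B1-int and 308 for ORR1D1. These values are not independent of each other, since they come from 1 library. The remaining case was MLT2F, at 6.50 CPM in KO female 2 against 3.12 to 4.13 in the other KO libraries.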

How the results depend on the processing

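Of 602 values of single subfamilies and genes under another setting, 576 kept their direction and their side of the threshold, 15 moved past it, 1 no longer passed and 10 changed sign. Most of the 15 came from a single setting, the fit without WT female 1, which leaves 1 WT female. The sign changes were MER70C (0.002), MLT1H-int (0.186) and MTA_Mm (0.107) within the repeats alone, MLT1H-int without WT female 2 (0.043), MLT1F2 without KO female 2 (-0.009) and KO male 1 (-0.052), and Nelfa without KO male 2 (-0.002), KO male 3 (-0.004), WT female 2 (-0.001) and WT male 3 (-0.007). With 1 library left out the highest MLT1F2 value was 0.093, the lowest of MLT1H-int -0.162 and the highest of Nelfa 0.062. The ERVL-MaLR share changed sign as a share of repeats (0.0597 points). With 1 library left out, the ERVL share difference ran from -0.0271 to -0.00267 points and that of ERVL-MaLR from -0.125 to -0.0107. Calls with 1 library left out ran from 0 to 15 (ERVL) and 0 to 17 (ERVL-MaLR) over both sexes, 0 to 3 and 0 to 4 in males, 0 to 26 and 0 to 26 in females, 0 to 0 and 0 to 1 for the difference between sexes, and 0 to 65 and 0 to 61 for sex. The upper ends came without WT female 1, except 4 in males, without WT female 2; 3 ERVL calls in males came without either. DESeq2 called 1 ERVL subfamily over both sexes, 2 ERVL-MaLR subfamilies in males, and 51 and 54 for sex; of all entries it called 525 over both sexes, where edgeR called 1, and its missing adjusted p values stayed missing. The other settings left the counts of called subfamilies within 1.5 times. Without WT female 1, more of all entries were also called in each comparison than with all 11 libraries. For the difference between sexes, the share called in that fit was smaller in either family than over all entries. For each change given here the cause was not tested. With the replicate number as a block, 0 ERVL and 0 ERVL-MaLR subfamilies were called, with medians of -0.252 and -0.248, and Cgas no longer passed (log2 fold change -1.96, edgeR adjusted p = 0.074); the numbers do not pair the mice.

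Depth limits the subfamilies with few counts, such as LTR108a_Mam and MER70C. The sharing of reads among copies is unknown. The WT female group holds 2 libraries that lie on either side of the KO females in both family shares. The sign of the female medians turned when WT female 2 was left out, so statements on females lean on that library.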
